A study of Homo sapiens with 4 samples.

Results

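The lysosome and vacuolar ATPase genes are a list of 45 human genes that encode the proton pump of acidic organelles, proteins of the lysosome and the transcription factors that drive their expression. They were taken from a named list and make up 45 of the 20037 protein-coding genes placed on the genome. Of the 45, 23 encode subunits or accessory proteins of the pump, 13 encode enzymes and other proteins of the lysosomal lumen, 6 encode proteins of the lysosomal membrane and 3 encode transcription factors. The genes were chosen by their known function, selected on a measured value only in that the list was drawn up after a shorter list of autophagy and lysosome genes had been seen to lose peaks in these same libraries. LAMP1, LAMP2, MCOLN1, HEXA and CTSB were among the genes lost then. All counts of lost genes are therefore descriptions, carry no test and give no support of their own.

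The data are ATAC-seq peak lists from 786-O cells, an established line of clear cell renal cell carcinoma that lacks functional VHL. ATAC-seq cuts DNA with a transposase where chromatin is open, and a peak marks a stretch with more cuts than its surroundings. One group of 2 libraries came from cells given the solvent DMSO, and the other group of 2 came from cells given ACSS2i at 5 µM, both for 24 h. ACSS2i is named as an inhibitor of ACSS2, the enzyme that makes acetyl-CoA from acetate. The labels do not say that the 2 libraries of a group came from separate cultures, and 2 against 2 cannot give an exact two-sided permutation p below 0.333, so no test was made.

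The vacuolar ATPase pumps protons into lysosomes and other acidic compartments. Its V1 sector lies in the cytosol and splits ATP, and its V0 sector lies in the membrane and carries the protons across. The acid lumen keeps the cathepsins, glycosidases and other hydrolases active. Many genes of this system carry in their promoters a form of the E-box CACGTG that is bound by TFEB, TFE3 and MITF, a small family of helix-loop-helix factors.

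The promoters of the list were read first. The genes were chosen by function, and many genes of this system are known to carry the motif, so its share here is no independent finding. RefSeq's promoter table for GRCh38.p14, which gives 250 bases before and 50 after each start, held 34 of the 45 genes. CACGTG was searched for, and with it the longer form TCACGTGA, which contains it. Each reads the same on both strands. CACGTG lay in 11 of the 34 promoters (32.4%), against 1407 of 15842 protein-coding promoters (8.88%) and 10.3% of the promoters of genes called in DMSO 1 and DMSO 2 alike. TCACGTGA lay in 6 of the 34 (17.6%) against 226 of the 15842 (1.43%). The median GC content was 68.3% in the promoters of the list and 62.7% over all promoters. These are letter matches in a fixed window, not measured binding.

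The 11 promoters were those of ATP6V0B, ATP6V0D1, ATP6V0E2, ATP6V1G1, CTSA, CTSD, GAA, NEU1, LAMP1, MCOLN1 and CD63. They were 4 of 16 pump promoters and 7 of 15 promoters of luminal and membrane proteins. LAMP1 held 6 CACGTG, with first bases 192, 176, 159, 142, 28 and 1 bases before the start. The 250 bases before the LAMP1 start, at chr13:113296989-113297238 on the plus strand, hold 5 of them whole, shown in capitals.

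LAMP1: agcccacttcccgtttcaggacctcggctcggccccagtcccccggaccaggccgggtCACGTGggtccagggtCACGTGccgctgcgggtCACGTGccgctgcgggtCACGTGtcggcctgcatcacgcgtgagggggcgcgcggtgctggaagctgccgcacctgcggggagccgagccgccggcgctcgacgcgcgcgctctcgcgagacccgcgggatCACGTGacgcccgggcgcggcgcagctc

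The other promoters with TCACGTGA are shown as the 100 bases before their starts, 5′ to 3′ on the strand of the gene, with CACGTG in capitals. MCOLN1 was at chr19:7522524-7522623 (plus), ATP6V1G1 at chr9:114587669-114587768 (plus), ATP6V0D1 at chr16:67481158-67481257 (minus), CTSA at chr20:45891235-45891334 (plus) and GAA at chr17:80101481-80101580 (plus). MCOLN1, CTSA and GAA each held CACGTG at 2 places there, and ATP6V1G1 and ATP6V0D1 each at 1.

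MCOLN1: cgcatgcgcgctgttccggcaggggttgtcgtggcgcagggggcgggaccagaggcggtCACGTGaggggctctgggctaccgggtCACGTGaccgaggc

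ATP6V1G1: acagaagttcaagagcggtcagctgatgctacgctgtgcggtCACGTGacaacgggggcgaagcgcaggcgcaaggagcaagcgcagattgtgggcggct

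ATP6V0D1: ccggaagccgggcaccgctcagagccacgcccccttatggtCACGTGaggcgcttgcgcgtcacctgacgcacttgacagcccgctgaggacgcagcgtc

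CTSA: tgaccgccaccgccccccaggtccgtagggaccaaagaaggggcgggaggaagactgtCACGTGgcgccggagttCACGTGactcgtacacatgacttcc

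GAA: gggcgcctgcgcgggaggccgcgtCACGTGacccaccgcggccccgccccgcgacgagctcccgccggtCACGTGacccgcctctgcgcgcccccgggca

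Among lost and kept genes of the list there were few promoters. CACGTG lay in 2 of the 6 lost genes with a promoter entry and in 4 of the 12 kept in all 4 libraries, 33.3% in both cases. TCACGTGA lay in 2 of the same 6 and in 1 of the 12. Over all genes CACGTG lay in 10.9% of lost promoters and 9.80% of kept ones, and TCACGTGA in 2.11% and 1.94%. Of the 11 promoters, a CACGTG lay inside a called peak in 8 and 10 in DMSO 1 and 2, and in 3 and 5 in ACSS2i 1 and 2. Of the 1407 promoters with CACGTG over all genes, it lay inside a peak in 50.8%, 63.5%, 24.6% and 36.1% in the same order, so fewer such motifs lay in peaks in both ACSS2i libraries there too.

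**Figure D1:**
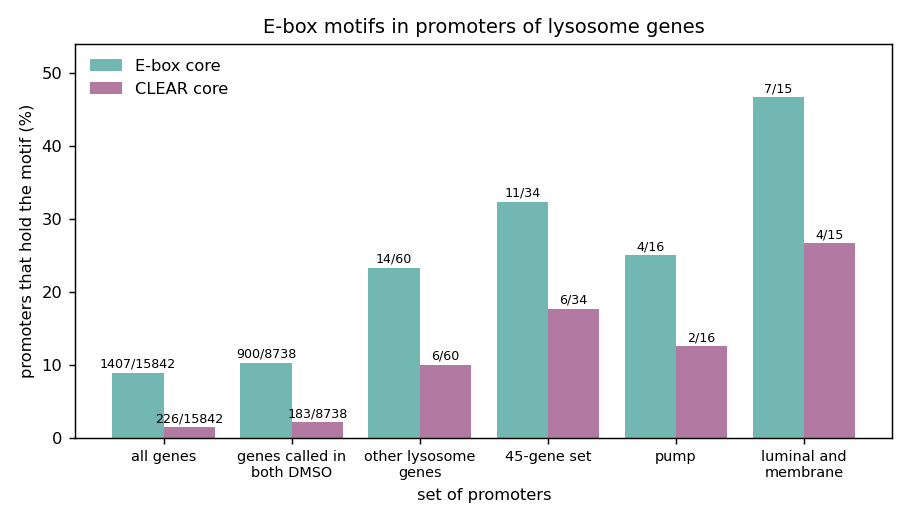
Share of promoters (percent, y axis from 0) that hold CACGTG (E-box core, green) or TCACGTGA (CLEAR core, purple), with matches over total above each bar, for each group of promoters on the x axis. The list stands at 32.4% for CACGTG against 8.88% of all protein-coding promoters.

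A gene was counted as having a peak where a called peak lay within 1000 bp of either end of its span. Gene-end peaks were called for 37, 40, 17 and 25 of the 45 genes in DMSO 1, DMSO 2, ACSS2i 1 and ACSS2i 2, against 52.6%, 60.0%, 32.5% and 40.7% of all protein-coding genes. The peak lists themselves held 34696, 50294, 16400 and 22044 peaks in that order, so both ACSS2i lists were shorter than both DMSO lists. The smallest pileup of reads that was called as a peak was 9, 8, 11 and 12, over a genome background of 2.06, 1.75, 2.32 and 3.16. List length and background thus moved with the group, and their part in each loss cannot be told apart from the treatment. Of 7 marker genes of the line, 6, 6, 3 and 6 had a gene-end peak, and PAX8, CDH6 and CDH2 were the ones without it in ACSS2i 1 alone. PAX2 had none in any library, and KRT8 and KRT18 were counted by the same peak. Of 12 markers of immune, endothelial, osteoclast and intercalated cells, 0 had one in any library.

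Both DMSO libraries had a gene-end peak for 37 of the 45 genes. For 11 of these (29.7%) neither ACSS2i library had one, and such genes are called lost here, against 18.9% of the 10471 genes of the genome with peaks in both DMSO libraries. The lost genes were ATP6V0A2, ATP6V0C, ATP6V0E1, ATP6V1B2, ATP6V1E1, LAMP1, LAMP2, CTSB, CTSZ, HEXA and MCOLN1. Without the 5 genes already known to be lost, the count was 6 of 32 (18.75%). Those genes were removed because they were lost, so this share could only fall. No conclusion is drawn from how near it lies to that of all genes. Peaks in all 4 libraries were found for 16 genes (43.2%), against 58.0% of all such genes. Another 10 had a peak in 1 ACSS2i library, against 23.1% (2417 genes). That library was ACSS2i 2 for 9 of them and ACSS2i 1 for CTSA. With the full lists no gene of the list gained a peak, and 0.00% of the 7950 genes with no DMSO peak did. The remaining 8 were 5 with no gene-end peak in any library and CTSD, TFEB and GAA, whose peak was called in DMSO 2 only.

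**Figure D2:**
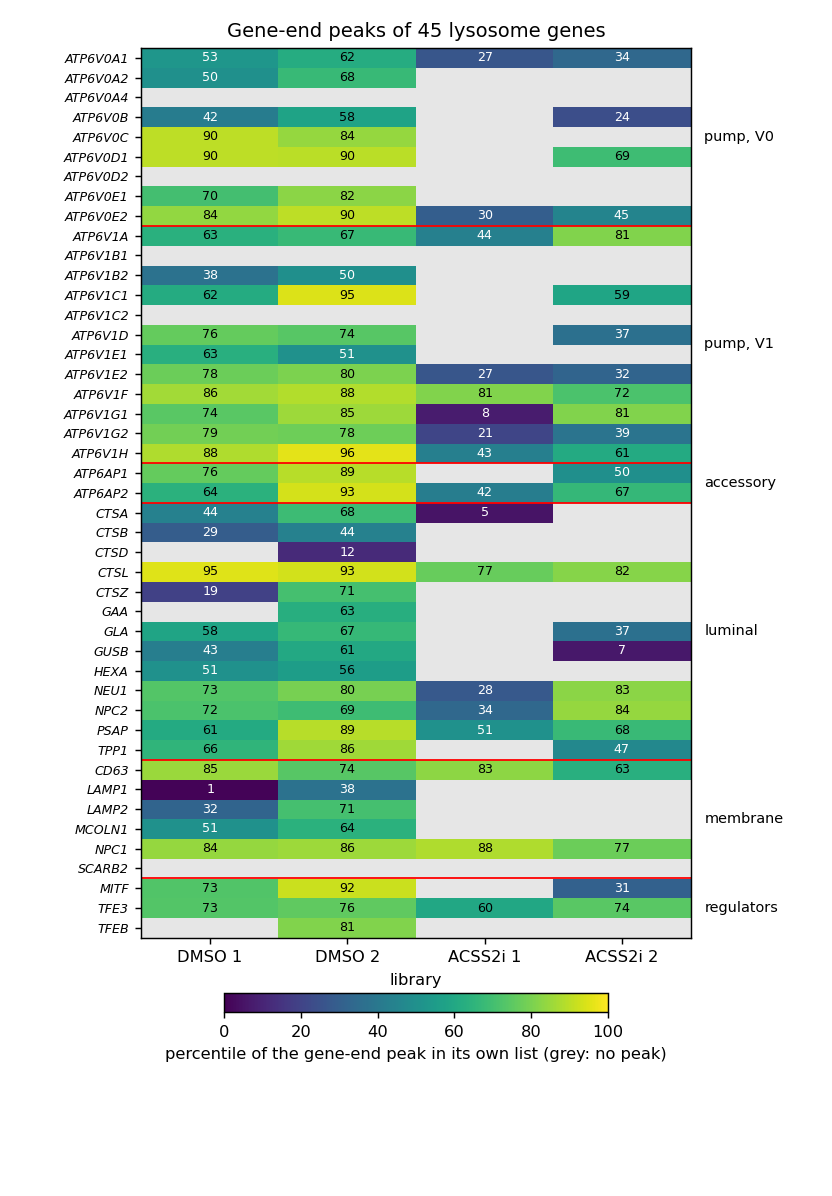
Percentile of each gene's strongest gene-end peak by −log10 q within its library (colour, 0 to 100) for the 45 genes (rows) in the 4 libraries (columns); empty cells have no gene-end peak. The ACSS2i columns hold 17 and 25 filled cells against 37 and 40 in the DMSO columns.

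The membrane sector of the pump lost 3 of the 7 genes present in both DMSO libraries, against 18.9% of all such genes. In what follows a percentile is the rank of a peak by the deposited −log10 q among all peaks of its own library, and a fold is the deposited enrichment at the summit over local background. ATP6V0A2, the proton-channel subunit isoform of the Golgi and endosomes (chromosome 12, 123712353 to 123761755), had folds of 5.60 and 8.39 in DMSO 1 and 2, at percentiles 50.1 and 67.5, with pileups of 23 and 47 reads. ATP6V0E1, a small V0 subunit (chromosome 5, 172983771 to 173035445), had folds of 6.23 and 9.14, at percentiles 70.0 and 82.5, with pileups of 34 and 72. Neither had a peak over the same place in ACSS2i.

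ATP6V0C encodes the proteolipid that forms the rotating ring of V0 (chromosome 16, 2513726 to 2520218). Its strongest DMSO 1 peak, of fold 8.18 at percentile 90.2, lay 869 bp past the downstream end, outside the gene and within reach of an end of AMDHD2. At its own start the folds were 5.57 and 8.96 (percentiles 53.0 and 84.35), with pileups of 25 and 78, and no ACSS2i library had a peak there. ACSS2i 1 still had a peak over the downstream DMSO peak, 1101 bp from the gene and so just beyond the window. The loss of ATP6V0C holds for its start and not for the downstream peak.

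The other 4 V0 genes with a gene-end peak had one in at least 1 ACSS2i library. ATP6V0D1, which joins the stalk to the ring, had percentiles of 90.0 and 89.8 in DMSO and 68.8 in ACSS2i 2, with folds of 8.29, 9.93 and 4.58. ATP6V0B, a second proteolipid, also had a peak in ACSS2i 2 only, with folds of 4.07 and 4.86 in DMSO and 2.94 in ACSS2i 2. ATP6V0A1 had folds of 5.20, 7.42, 4.08 and 3.70 in DMSO 1, DMSO 2, ACSS2i 1 and ACSS2i 2, and ATP6V0E2 had 6.81, 9.42, 3.51 and 3.35. For both genes the 2 ACSS2i folds lay below the 2 DMSO folds. The median fold over all genes with a gene-end peak was also lower, 4.89 and 4.65 in ACSS2i against 6.21 and 8.91 in DMSO. The folds given below are to be read beside these medians.

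The cytosolic V1 sector lost 2 of 10 genes and kept 6 in all libraries, against 18.9% and 58.0% of all genes. ATP6V1B2, the widely expressed form of the nucleotide-binding B subunit, had folds of 5.56 and 8.03 in DMSO, at percentiles 37.8 and 49.7, with pileups of 16 and 26. ATP6V1E1, a stalk subunit (chromosome 22, 17592136 to 17628822), had folds of 6.26 and 6.21 at percentiles 63.0 and 50.8, with pileups of 28 and 36, and shares its peak with an end of BCL2L13. Both DMSO peaks of these genes overlapped each other, and no ACSS2i peak lay over them.

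Of the kept V1 genes, ATP6V1A, which holds the catalytic site, had folds of 5.38, 6.19, 4.29 and 5.65, with ACSS2i 2 between the DMSO values. These come from different summits of a wide peak that also reaches an end of NAA50. The summits lay 1363, 633 and 1350 bp outside the gene in DMSO 1, DMSO 2 and ACSS2i 2, and 131 bp inside it in ACSS2i 1, so the folds do not follow 1 site. ATP6V1H, a regulatory subunit, had 7.29, 12.3, 4.12 and 4.33. ATP6V1F had 6.07, 7.26, 5.17 and 4.07 (chromosome 7, 128862856 to 128865847). For ATP6V1H and ATP6V1F both ACSS2i libraries lay below both DMSO libraries. ATP6V1G1 had 6.60, 9.69, 3.31 and 5.49, and its peak in 1 library lay outside the gene. ATP6V1C1 and ATP6V1D, a subunit of the rotor, kept a peak in ACSS2i 2 only, with folds of 4.49 and 4.32 there.

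Of the 2 accessory genes, 1 had peaks in all libraries and neither was lost, against 58.0% and 18.9% of all genes. ATP6AP2, also known as the prorenin receptor, had folds of 7.28, 16.3, 4.82 and 5.76 in the order given above. ATP6AP1 had 7.74 and 13.3 in DMSO, none in ACSS2i 1 and 4.80 in ACSS2i 2. For both genes the ACSS2i folds lay below the DMSO folds.

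Most of the isoforms restricted to specialised cells lacked a peak at their ends. Of 6 such pump genes, ATP6V0A4, ATP6V0D2, ATP6V1B1 and ATP6V1C2 had none in any library, while all 17 other pump subunits had one in both DMSO libraries. The remaining 2, ATP6V1E2 and ATP6V1G2, had peaks in all 4 libraries, but these also reach an end of RHOQ and of NFKBIL1. Among all 20037 protein-coding genes, 7944 lacked gene-end peaks throughout and 10471 were called in DMSO 1 and DMSO 2 alike. The 6 genes are too few to set these isoforms apart from other genes. ATP6V0A4, the kidney and epididymis form, had a strong peak 45.5 kb inside the gene, with folds of 9.57, 13.7, 6.63 and 6.96 at percentiles 99.2, 99.7, 94.0 and 98.2. ATP6V0D2 had one 9.93 kb inside, with folds of 9.24, 12.6, 3.59 and 4.80. ATP6V1B1, the form of intercalated cells, had weaker inner peaks of fold 5.10, 5.44, 3.98 and 3.18. ATP6V1C2 had 0 peaks inside its span in every library. FOXI1, SLC4A1 and SLC26A4, markers of intercalated cells, were without gene-end peaks in all 4 libraries.

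Among luminal proteins, 3 of 11 genes were lost and 4 were kept in all libraries, against 18.9% and 58.0% of all genes. HEXA, the alpha subunit of beta-hexosaminidase (chromosome 15, 72340924 to 72376014), had folds of 6.06 and 7.99 in DMSO at percentiles 50.7 and 55.8, with pileups of 21 and 33. CTSB, the cysteine protease cathepsin B, had folds of 4.86 and 6.66 at percentiles 29.4 and 44.0, with pileups of 15 and 26. CTSZ, cathepsin Z (chromosome 20, 58995185 to 59007254), had folds of 3.31 and 6.25 at percentiles 19.3 and 70.6, with pileups of 21 and 68. The counted CTSZ summits also differed in place, 871 and 150 bp inside the gene from its end.

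CTSL, the cysteine protease cathepsin L (chromosome 9, 87726119 to 87731469), had the highest percentile of the list by the lower of its DMSO values and was kept, with folds of 9.73, 12.5, 5.65 and 5.62 at percentiles 95.1, 93.3, 76.6 and 81.9. NEU1, the lysosomal sialidase, had folds of 5.44, 6.70, 3.86 and 5.34. NPC2, which carries cholesterol in the lumen, had 7.06, 8.12, 4.52 and 7.21, and PSAP, the saposin precursor, had 5.56, 10.9, 4.99 and 4.81. For NPC2 the ACSS2i 2 fold lay between the DMSO folds; for the other 3 both ACSS2i folds lay below both DMSO folds.

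The remaining luminal genes were CTSA, GLA, GUSB and TPP1, each with a peak in 1 ACSS2i library, and CTSD and GAA. TPP1, a tripeptidyl peptidase, shows what a gene end can hide: its strongest DMSO peaks lay at the downstream end, within reach of ILK and TAF10, while the ACSS2i 2 peak of fold 3.79 lay at the start end, where DMSO folds were 6.33 and 8.18. CTSD, cathepsin D, had a gene-end peak in DMSO 2 alone, of fold 2.59 and 769 bp from the end. An inner peak 3.09 to 3.26 kb from the nearer end was present in all 4 libraries, with folds of 7.47, 9.05, 7.40 and 5.64. GAA, acid alpha-glucosidase, had its peak in DMSO 2 alone, of fold 6.95.

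Of the membrane proteins, 3 of 5 were lost, against 18.9% of all genes: LAMP1, LAMP2 and MCOLN1, all among the 5 known beforehand. LAMP1 and LAMP2 are the heavily glycosylated proteins that line the lysosomal membrane. LAMP1 (chromosome 13, 113297239 to 113323672) had the weakest DMSO 1 peak of the list, at percentile 0.888 with a fold of 3.15 and a pileup of 10, close to the smallest called pileup of that library. In DMSO 2 it had a fold of 5.48 at percentile 37.7 and a pileup of 26. LAMP2 (chromosome X, 120426148 to 120469349) had folds of 5.18 and 11.3, at percentiles 32.3 and 70.6, with pileups of 15 and 40.

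MCOLN1, the lysosomal calcium channel TRPML1 (chromosome 19, 7522624 to 7534009), was counted as lost by a peak outside its gene. That peak, of fold 5.01 and 6.87 in DMSO, reaches an end of PNPLA6, and both ACSS2i lists still held peaks over it, 1113 and 1118 bp from the gene. At its own start, where the promoter printed above lies, the DMSO folds were 3.80 and 5.43 at percentiles 13.4 and 39.5, with pileups of 13 and 28, and neither ACSS2i library had a peak. NPC1, the cholesterol transporter of the lysosomal membrane, had folds of 7.05, 8.37, 6.99 and 5.59, and CD63, a tetraspanin, had 6.23, 5.94, 6.01 and 4.14. SCARB2 had no gene-end peak, but the start in RefSeq's promoter table, 20.7 kb inside the span, had folds of 7.06, 13.7, 4.0 and 4.14.

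Of the 3 transcription factors, TFE3 had folds of 6.06, 7.11, 5.31 and 5.33. MITF had folds of 7.71 and 13.4 in DMSO and 4.0 in ACSS2i 2. TFEB had a gene-end peak in DMSO 2 only, of fold 7.31 and 476 bp from the end, and its nearest inner peaks in DMSO 1, ACSS2i 1 and ACSS2i 2 lay 1479, 1837 and 1283 bp from that end, beyond the window. These are the values on each side of the 1000 bp limit, together with the ATP6V0C, CTSD and MCOLN1 peaks given above. RefSeq's promoter table places the TFEB start 615 bp inside the span. Within 1000 bp of that start, peaks had folds of 4.45, 7.31 and 3.73 in DMSO 1, DMSO 2 and ACSS2i 2. ACSS2i 1 had none there.

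Pump genes and the other lysosomal proteins were compared by count and by strength. Of 19 pump genes with peaks in both DMSO libraries, 5 were lost and 9 kept in all libraries. Of 16 luminal and membrane genes, 6 were lost and 6 kept. Over all genes 18.9% were lost and 58.0% kept. The median of the lower DMSO percentile was 74.2 for the pump and 54.5 for luminal and membrane genes, against 65.5 for the list and 65.4 for all genes. In DMSO 1, DMSO 2, ACSS2i 1 and ACSS2i 2 the median percentile of the pump was 74.48, 82.46, 29.88 and 54.28. That of luminal and membrane genes was 54.52, 68.80, 50.52 and 67.63, and that of all genes 66.71, 77.23, 56.03 and 60.37. The whole list stood at 42.27 and 61.02 in ACSS2i 1 and 2. Each median covers only genes with a peak in that library, so it does not follow the same genes. In ACSS2i these were 9 and 14 pump genes, and 7 and 9 luminal and membrane genes. The order of the 2 groups by lost share rests on genes known beforehand, since all 5 of them are luminal or membrane genes. Without them CTSZ alone was lost there, 1 of 11, against 5 of 19 for the pump. Those 5 genes were removed because they were lost, which could lower only the luminal and membrane share. These counts therefore cannot order the 2 groups by loss. With lists of equal length the pump lost 2 of 13 and the luminal and membrane genes 0 of 7, against 5.29% of all genes. That cut could only remove peaks, so lost genes left this count when a DMSO peak was cut.

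Loss followed the strength of the DMSO peak in the genome as a whole. With genes placed by the lower of their DMSO percentiles, 68.1% of genes at percentiles 0 to 25 were lost (804 of 1181), 37.8% at 25 to 50 (817 of 2159), 9.86% at 50 to 75 (323 of 3276) and 0.908% at 75 to 100 (35 of 3855). In the list, the lost genes were 2 of 2, 3 of 6, 5 of 19 and 1 of 10 in the same order. These include the genes known beforehand to be lost: LAMP1 in the first band, LAMP2 and CTSB in the second, and HEXA and MCOLN1 in the third. The gene in the strongest band was ATP6V0C, by its downstream DMSO 1 peak, and MCOLN1 counted in the third band by a peak outside its gene. With peaks taken at the transcription start only, which 27 genes of the list allow, the counts were 3 of 3, 0 of 3, 3 of 14 and 0 of 7, against 66.7%, 36.4%, 9.52% and 0.686% of all such genes. LAMP1 and MCOLN1, known beforehand, lay in the weakest of these bands.

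**Figure D3:**
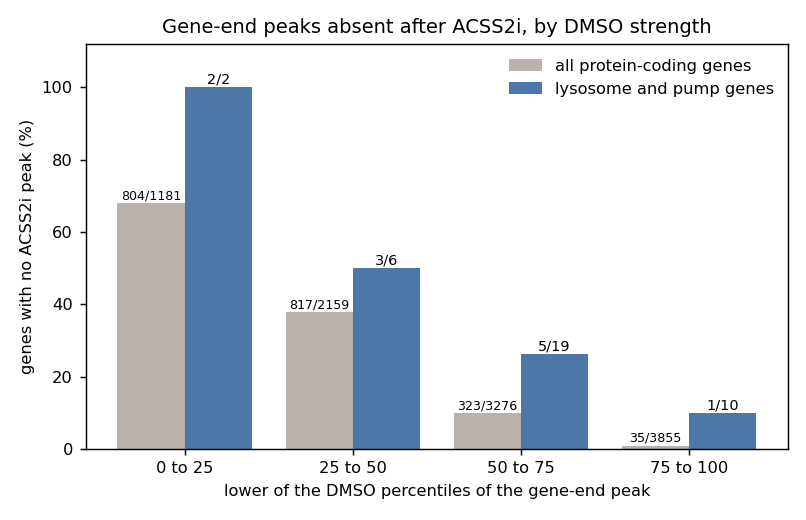
Share of genes lost in ACSS2i (percent, y axis from 0) by band of the lower DMSO percentile (x axis), for all protein-coding genes (grey) and the list (blue), with lost over total above each bar. The share over all genes falls from 68.1% in the weakest band to 0.908% in the strongest. The bars of the list include the 5 genes known beforehand to be lost.

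Other ways of counting gave 11 of 37 lost with a window of 500 bp (19.7% of all genes) and 9 of 39 with 2000 bp (18.6%). A −log10 q of at least 5 gave 14 of 35 (29.8%), and the start end alone gave 6 of 27 (18.2%). Peaks with the summit in the window gave 11 of 36 (19.0%), and peaks that touch the gene gave 12 of 37 (22.7%). With ACSS2i replicate 2 left out the count was 20 of 37 (38.1%), and with ACSS2i replicate 1 left out it was 12 of 37 (22.8%). Leaving out DMSO replicate 1 gave 14 of 40 (28.5%), and leaving out DMSO replicate 2 gave 11 of 37 (19.4%). The lost share of the list lay above that of all genes in each of these counts, the 5 genes known beforehand included.

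A fixed number of peaks per library left fewer genes that could be counted as lost. With each list cut to its 16400 strongest peaks by −log10 q, the list of 45 had 25, 27, 17 and 23 gene-end peaks, and 2 of 22 genes, ATP6V0C and ATP6V0E1, were lost, against 5.29% of all genes. The cut could only take peaks away, and ACSS2i 1, the shortest list, already held 16400. None of the other lost genes had an ACSS2i peak in the cut lists either. They left the count because a DMSO peak of theirs fell outside the cut. ATP6V0C and ATP6V0E1 are the 2 lost genes with the highest values of the lower DMSO percentile. In the same lists ATP6V0A1 had a peak in both ACSS2i libraries and in neither DMSO library, as did 0.851% of all genes without a DMSO peak there. In the full lists its folds were higher in DMSO (5.20 and 7.42) than in ACSS2i (4.08 and 3.70). Its DMSO 1 peak, at percentile 52.6, fell just outside the cut. The DMSO 1 peak at the ATP6V0C start stood at percentile 53.0.

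The 16 genes kept in all 4 libraries were also compared by peak height. As the pileup at the summit over the genome background of its library, their median was 19.9, 45.8, 7.99 and 9.96 in DMSO 1, DMSO 2, ACSS2i 1 and ACSS2i 2. Over all 6075 genes kept it was 19.9, 48.1, 8.64 and 9.48. All 16 were higher in both DMSO libraries than in both ACSS2i libraries, and so were 99.6% of all genes kept. The ratio of the ACSS2i mean to the DMSO mean had a median of 0.288 in the list, from 0.215 for ATP6V1H to 0.371 for ATP6V1A, whose summits differ in place as given above, against 0.278 over all genes with quartiles of 0.247 and 0.310. The 2 DMSO libraries differed by a median factor of 2.26 in the list and 2.42 over all genes. The median ratio of the list lay between the quartiles of all genes.

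**Figure D4:**
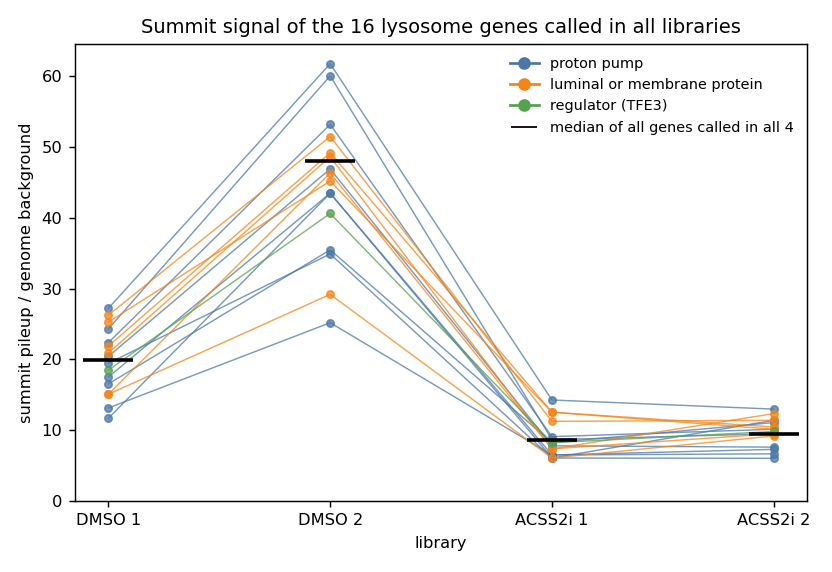
Pileup at the peak summit over the genome background (y axis from 0) in the 4 libraries (x axis) for each of the 16 genes kept in all libraries, 1 line per gene coloured by role; black bars are the medians over all 6075 genes kept. Every gene has both ACSS2i values below both DMSO values, as do 99.6% of all genes kept.

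The peaks of the list had the usual width. Their median width was 856, 1065, 474 and 627 bp in the 4 libraries, against 865, 1078, 534 and 669 bp over all genes. A neighbouring protein-coding gene lay within reach of a counted peak for 13 of 37 genes (35.1%), against 34.4% of all genes. A peak outside the gene span was counted for 4 of the 45, namely ATP6V0C, ATP6V1G1, ATP6V1G2 and MCOLN1.

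A further 80 lysosome genes outside the list were counted in the same way. Of 67 with peaks in both DMSO libraries, 12 were lost (17.9%), 34 were kept in all libraries (50.7%) and 21 had a peak in 1 ACSS2i library, against 18.9% lost and 58.0% kept over all genes. The lost share was thus near that of all genes. By class, 8 of 29 enzyme and luminal genes were lost, 1 of 11 membrane genes and 2 of 6 delivery and activation genes. Of nutrient-sensing genes 1 of 11 was lost, and of further pump and assembly genes 0 of 10, against 18.9% of all genes. The classes also differed in DMSO strength. Their medians of the lower DMSO percentile were 52.3, 69.3, 32.9, 74.3 and 71.7 in that order, against 65.4 for all genes. By band of that percentile, from weakest to strongest, 9 of 11, 2 of 13, 1 of 24 and 0 of 19 were lost. Over all genes these bands lost 68.1%, 37.8%, 9.86% and 0.908%. By the lower DMSO percentile, the lost genes that ranked highest were LAMTOR3, an anchor of mTORC1 at the lysosome, at 52.7 with folds of 6.31 and 9.25, and FUCA1, the lysosomal fucosidase, at 43.0 with folds of 4.58 and 6.67. CACGTG lay in 14 of the 60 with a promoter entry (23.3%) and TCACGTGA in 6 (10.0%). TCIRG1, a further form of the V0 a subunit, had peaks in all 4 libraries, and ATP6V1G3 had none in any.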

How the data were processed

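ATAC-seq was measured in 4 libraries of 786-O cells, 2 per group. Per the submitters' processing notes, which name tools and a build (hg38) without their roles, MACS2 2.1.2 was used along with Bowtie2, deepTools 3.5.0, Trimmomatic 0.38, bedtools, Picard 2.18.26, bcl2fastq 2.17, DiffBind and SAMtools 1.9. Not given in the sources used here: read depth, options and the peak filter. Each deposited list holds 1 row per summit, with a score, the fold enrichment ratio at the summit, the −log10 p-value, the −log10 q-value and the summit offset; all values are the authors'.

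Genes were matched by symbol to RefSeq GRCh38 spans (45 of 45; 80 of 80 other genes, 2 by synonym). Rows of one peak were merged, and a gene took its strongest peak by −log10 q within 1000 bp of either end. Pileup was solved from the deposited fold and −log10 p, matching within 0.001 for at least 99.9878% of the peaks of each library. Genes named in full are all lost genes, the kept genes with the strongest DMSO peaks, the regulators, genes with counted peaks outside their span and genes without end peaks; the sequences shown for ATP6V0D1, CTSA and GAA, and other examples, were chosen after their values were seen. Members and lists were chosen with earlier results of these data known. No statistical test was used. The counting was checked on simulated data. By percentile, same-numbered libraries did not deviate together gene by gene (correlation 0.0445 across 6075 genes, which are not independent). Percentiles leave out differences in list length, and replicate 1 had the shorter list in both groups. Alternatives were the window, a stricter q, equal list length, the summit, the gene span, the start end (genes in the promoter table only) and leaving out libraries. Python 3.11.15, pandas 2.3.3, NumPy 2.4.6, SciPy 1.17.1 and matplotlib 3.10.9 were used.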

Additional observations from a re-analysis of the deposited data

How the results depend on the processing

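Lost genes numbered 11 of 37, and 9 to 12 with windows of 500 or 2000 bp, the summit inside the window, peaks that touch the gene, or DMSO peaks that overlap. The count was 14 of 35 at a −log10 q of at least 5, 6 of 27 at the start end only, and 2 of 22 with lists of equal length. The equal-length cut could only remove peaks. Leaving out 1 library gave 11 to 20, with 20 of 37 without ACSS2i replicate 2 (38.1% of all genes) and 14 of 40 without DMSO replicate 1 (28.5%). Genes in all libraries numbered 16, and 9 of 35 at the stricter q (43.5% of all genes). Leaving out 1 library gave 16 to 25, with 25 without ACSS2i replicate 1, the shortest list (77.2%). Leaving out both the shortest and the longest list gave 12 lost and 25 kept of 37, against 23.3% and 76.7% of all genes. Leaving out the 5 genes known to be lost gave 6 lost of 32. Both counts were chosen after seeing the data. The last count removes genes because they were lost, so it could only fall. The cause was not tested. No paired analysis was possible because the counts of called peaks come from no test to which a replicate block could be added. The lists hold called peaks only, so a lost peak may lie below the threshold of its library.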
